A study of Mus musculus with 9 samples.

Results

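The 10 genes described here encode the 5 subunits of the transcription factor NF-kappaB (Nfkb1, Nfkb2, Rel, Rela and Relb) and 5 regulators that form its feedback loops (Nfkbia, Nfkbie, Tnfaip3, Nfkbiz and Bcl3). They were chosen by name, were all found among the 50686 genes of the count tables, and all passed the filter on low counts that left 13852 genes for testing. RNA-seq was performed on BCR/ABLp185+ cells, which are bone marrow cells of C57BL/6N mice transformed by the BCR/ABL oncogene, and every line carries that oncogene. The wt line has both STAT5 genes, the Stat5a-/- line is labelled a knockout of Stat5a and the Stat5b-/- line one of Stat5b, and the labels give no other allele, treatment or time point that separates them. Each genotype is 1 cell line measured in 3 technical replicates, 9 libraries in all, so the tests compare 3 lines and their p-values cover only the spread between replicates of a line.

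NF-kappaB is a dimer of Rel-family proteins. In resting cells the dimers are held in the cytoplasm by IkappaB proteins, which the IKK kinases mark for degradation once a receptor of the TNF, Toll-like or antigen receptor type is engaged. The freed dimers switch on target genes, and among these are the genes of their own subunits and inhibitors, which is how the response limits itself. In B-lineage cells the pathway is known for its part in survival and maturation, and STAT5A and STAT5B are transcription factors that BCR/ABL keeps active.

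The promoters of these genes were examined for the sequence motif of NF-kappaB. RefSeq promoter windows of 300 bases (250 before to 50 after a start site, GRCm38.p6) were at hand for 7 of the 10 genes, in 10 windows, and Nfkb1, Relb and Nfkbiz had no entry. They were searched on both strands for the kappaB consensus, which is a run of G, a purine, any base, A or T, then pyrimidines and C. A match was found in 8 of the 10 windows and in 6 of the 7 genes, all but Rela. The windows of 2 Nfkb2 start sites overlap, and the match at chr19:46305705-46305714 counts in both. Among all 32851 promoter windows 4.51% held a match, as did 5.14% of 27025 genes. The windows below are the 30 bases around one match of each gene and a second for Tnfaip3, read along the gene's own strand, with the match in capitals. They lie at chr12:55492657-55492686 (Nfkbia, - strand), chr17:45555584-45555613 (Nfkbie, + strand), chr10:19015403-19015432 and chr10:19015516-19015545 (Tnfaip3, - strand), chr11:23771042-23771071 (Rel, - strand), chr19:46304688-46304717 (Nfkb2, + strand) and chr7:19822734-19822763 (Bcl3, - strand).
Nfkbia: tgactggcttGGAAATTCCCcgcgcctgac
Nfkbie: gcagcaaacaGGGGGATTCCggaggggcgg
Tnfaip3, near the start site: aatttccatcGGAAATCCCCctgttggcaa
Tnfaip3, further upstream: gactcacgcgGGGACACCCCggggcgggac
Rel: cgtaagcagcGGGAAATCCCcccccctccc
Nfkb2: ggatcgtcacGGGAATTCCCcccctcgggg
Bcl3: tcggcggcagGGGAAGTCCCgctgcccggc
In Rel and Nfkb2 a second match on the other strand overlaps the one shown, shifted by 1 base. The GAS element TTCNNNGAA, to which STAT proteins bind, was found on either strand in the window of 1 of the 7 genes, Nfkb2, and in 9.55% of all genes. It spans chr19:46304589-46304597, and the 29 bases printed span chr19:46304579-46304607 on the + strand.
Nfkb2, GAS element: tgggcgagccTTCCCCGAAaggggcgcgc
A match of letters is a description of the window and says nothing of binding in these cells.

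**Figure D1:**
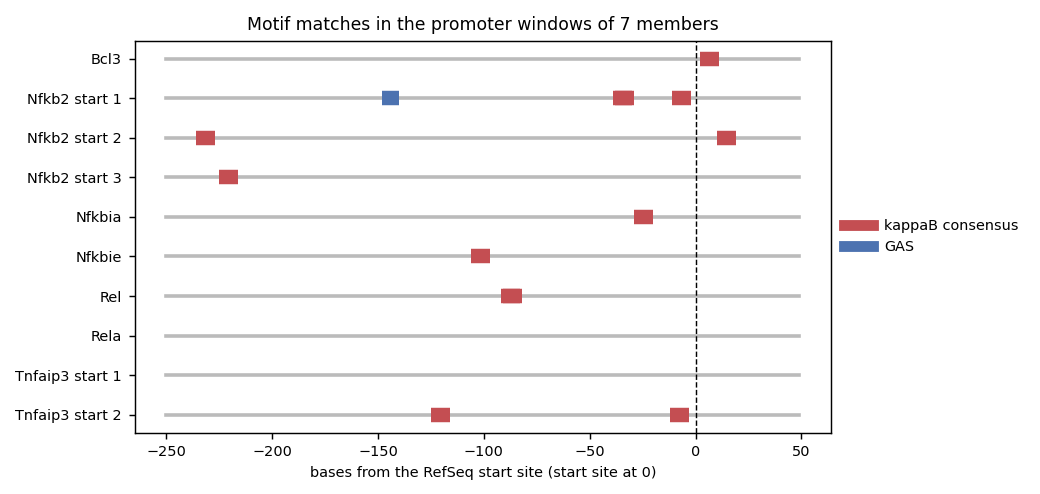
Matches of the kappaB consensus (red) and of the GAS element (blue) in the RefSeq promoter windows of 7 of the 10 genes, with the distance in bases from the start site (0, dashed line) on the x axis and 1 grey line per start site. Rela and 1 of the 2 Tnfaip3 start sites have no match, and the GAS element appears in Nfkb2 alone.

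The libraries held between 11948136 and 19016396 counted reads, and values below are normalized CPM (counts scaled to a common library total with TMM). The knockouts were checked first. In the wt, Stat5a-/- and Stat5b-/- lines, Stat5a was at 43.1 ± 6.35, 12.4 ± 1.02 and 83.7 ± 10.2 normalized CPM (mean ± SD, n = 3), and Stat5b was at 105.5 ± 1.96, 141.7 ± 15.9 and 63.4 ± 7.72. Each was lowest in its own knockout line, and reads on both genes remained there. All 10 B-lineage markers on the list were detected, and their sum lay between 5187 and 5452 normalized CPM in wt, 7201 and 7802 in Stat5a-/-, and 6660 and 7416 in Stat5b-/-. All 16 T-cell markers were detected as well, none at 0, with a sum of 744 to 1034 in wt, 1284 to 1494 in Stat5a-/- and 1577 to 2329 in Stat5b-/-, so the 3 lines did not overlap. By the edgeR test described below, 7 of the 16 were higher than wt in Stat5a-/- and 15 in Stat5b-/- (19.8% and 24.2% of all genes). A large part of the rise in Stat5a-/- was Cd2, with 55.1 ± 0.892, 276.2 ± 16.8 and 96.3 ± 6.98 in the 3 lines. Between the knockout lines 14 markers were higher in Stat5b-/- and 1, Cd2, was lower. Of 12 myeloid markers 8 stayed under 1 normalized CPM in every line, as did all 6 erythroid and platelet markers. The other 4 myeloid markers were tested, and 3 of them were higher past both limits in Stat5b-/- against wt. The myeloid sum was 18.2 to 19.5 normalized CPM in wt, 16.9 to 18.4 in Stat5a-/- and 22.7 to 26.8 in Stat5b-/-. The part of these markers in the differences below was not tested beyond the T-cell covariate given there. In bulk RNA, fewer cells of a type and less RNA per cell cannot be told apart. Libraries of a line also differed with the GC content of genes (how far a library departed from its line's mean correlated with GC across genes, with r up to 0.525).

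Relative to wt, an adjusted p under 0.05 was reached upwards by 3 and downwards by 1 of the 10 genes in the Stat5a-/- line, and by 5 and 0 in the Stat5b-/- line (quasi-likelihood test of edgeR, p adjusted by Benjamini-Hochberg over the 13852 genes). Among all genes tested, the Stat5a-/- line had 19.8% higher and 16.3% lower, and the Stat5b-/- line 24.2% higher and 22.0% lower. In the Stat5b-/- line 0 members were lower at an unadjusted p under 0.05 as well, and 0 by DESeq2. With a fold change over 2 added as a second limit, 1 gene stayed in Stat5a-/- (Nfkbie, beside 7.75% of all genes upwards, and none downwards beside 6.49%) and 3 in Stat5b-/- (Nfkbie, Tnfaip3 and Nfkbiz, beside 10.6% upwards and 8.44% downwards). The median log2 fold change of the 10 genes was 0.14 in Stat5a-/- and 0.48 in Stat5b-/-, and that of all tested genes 0.0099 and 0.023. Stat5b-/- against Stat5a-/- gave 3 higher (Tnfaip3, Nfkbiz and Rel) and 1 lower (Rela), where 16.4% of all genes were higher and 17.5% lower. Tnfaip3 alone also passed the fold change limit there, as 4.81% of all genes did upwards and 6.60% downwards. The 2 comparisons with wt share the wt libraries. Their counts moved in some alternative runs. Without wt replicate 3, 1 member was higher in Stat5a-/-, and 2205 of 14102 genes were. With the T-cell covariate described below, 1 member was higher and 0 lower in Stat5a-/-, and 2 were higher in Stat5b-/-. Over all 13852 genes that fit called 1899 higher and 1650 lower in Stat5a-/-, and 948 higher in Stat5b-/-.

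**Figure D2:**
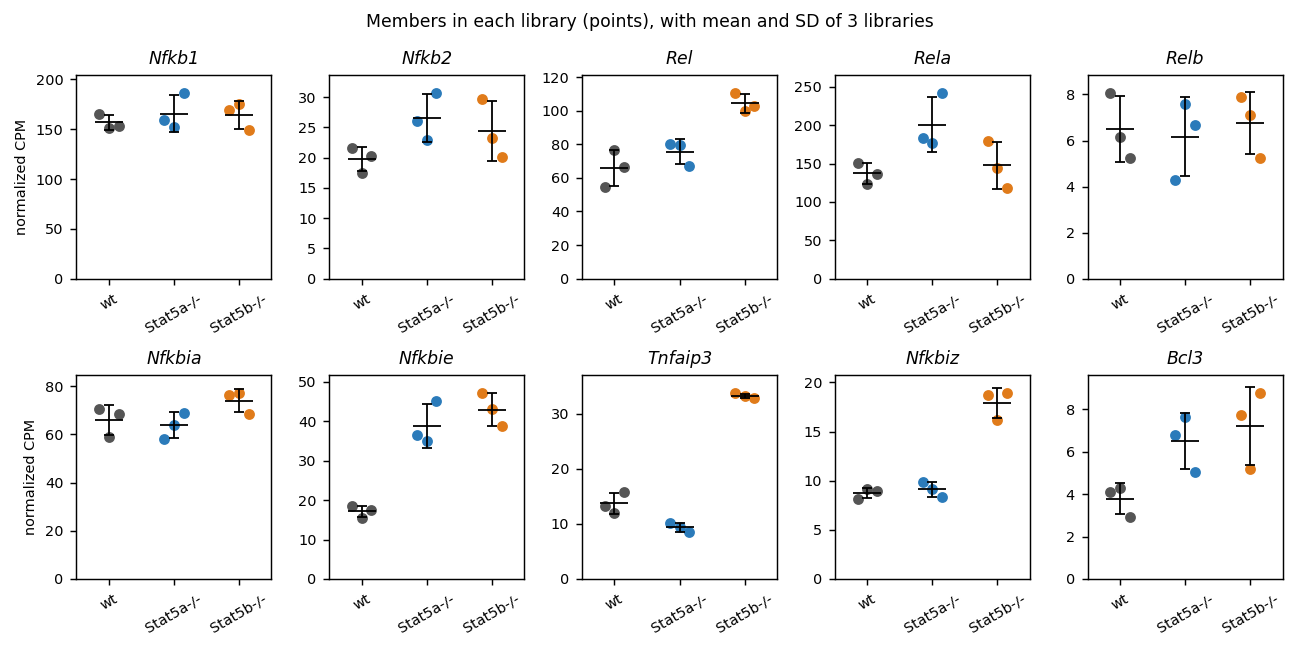
Normalized CPM of each of the 10 genes (y axis, from 0) in the 3 libraries of wt, Stat5a-/- and Stat5b-/- (points), with the mean and SD of each line (black). Nfkbie is above every wt library in both knockout lines, whereas Tnfaip3 lies below wt in Stat5a-/- and above wt in Stat5b-/-.

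Of the 5 subunits 1 was called in each comparison with wt, upwards, Rela in Stat5a-/- and Rel in Stat5b-/-. Over all tested genes 19.8% and 24.2% were higher, so 1 of 5 is near the share of all genes. Rel encodes c-Rel, a subunit found mainly in blood cells. It had 54.8, 76.5 and 66.4 normalized CPM in the wt libraries, 80.1, 79.7 and 66.8 in Stat5a-/- and 110.5, 99.6 and 102.9 in Stat5b-/-. Every Stat5b-/- library was above every other library, whereas wt and Stat5a-/- overlapped. Rel was 1.58-fold higher in Stat5b-/- than in wt (log2 fold change 0.66, standard error 0.13, adjusted p = 8.25e-04) and 1.38-fold higher than in Stat5a-/- (0.47, standard error 0.13, adjusted p = 0.0125). In Stat5a-/- its log2 fold change against wt was 0.20 (adjusted p = 0.254). The Rel difference between Stat5b-/- and wt kept its call without any 1 of the 9 libraries. With the sum of the T-cell markers as a covariate, a fit chosen after seeing the data, its log2 fold change was 0.03 (adjusted p = 0.961), and between the knockout lines 0.18 (adjusted p = 0.433), so that both calls were lost. Because the sum does not overlap between lines, that fit can hardly separate it from the line, and the number of genes higher in Stat5b-/- over all genes fell from 3348 to 948.

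Rela encodes p65, the subunit that carries the strongest activation domain in most cells. Its values were 151.2, 123.6 and 136.8 normalized CPM in wt, 183.5, 177.5 and 241.9 in Stat5a-/- and 179.9, 144.7 and 118.0 in Stat5b-/-. All Stat5a-/- libraries exceeded all wt libraries, and the Stat5b-/- libraries overlapped with both lines. Rela was 1.46-fold higher in Stat5a-/- than in wt (log2 fold change 0.55, standard error 0.16, adjusted p = 0.0153). Stat5b-/- against wt gave 0.11 (adjusted p = 0.612), and Stat5b-/- against Stat5a-/- gave -0.44 (standard error 0.16, adjusted p = 0.0454). These calls were fragile. The first was lost without wt replicate 2 (adjusted p = 0.0621), wt replicate 3 (0.0517) or Stat5a-/- replicate 3 (0.0905), and the last when wt replicate 3, Stat5a-/- replicate 1 or 3, or Stat5b-/- replicate 2 or 3 was left out, with adjusted p up to 0.198 (without Stat5a-/- replicate 3). Both were also lost with the T-cell covariate (0.72, adjusted p = 0.075, and -0.30, adjusted p = 0.459). The difference between the knockout lines was lost as well with a replicate block (adjusted p = 0.0623) and in a fit of those 2 lines alone (0.0671).

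Rela and Nfkb2 are the members with the same exonic GC content, 59.4%, and they moved together among the replicates. In each line the highest value of both genes was in the library whose GC-rich genes were raised most, which was replicate 1 in wt, replicate 3 in Stat5a-/- and replicate 1 in Stat5b-/-. The same held for Nfkbie, whose GC content is lower (55.4%), with 18.4, 45.2 and 47.1 normalized CPM in these libraries. This was not so for Bcl3, which has a higher GC content (62.6%) and its highest values in wt replicate 2, Stat5a-/- replicate 2 and Stat5b-/- replicate 3. With a GC offset for each library, the log2 fold change of Rela in Stat5a-/- against wt was 0.32 (adjusted p = 0.00361), and -0.32 (adjusted p = 0.00455) between the knockout lines. Nfkb2, the precursor of p52 in the non-canonical pathway, had 21.5, 17.5 and 20.2 normalized CPM in wt, 26.0, 22.9 and 30.7 in Stat5a-/- and 29.8, 23.3 and 20.03 in Stat5b-/-. Its Stat5a-/- libraries lay above wt without passing the test (log2 fold change 0.42, standard error 0.16, adjusted p = 0.0543), and Stat5b-/- overlapped with wt (0.31, adjusted p = 0.135). The first passed without Stat5b-/- replicate 1 (adjusted p = 0.0389) or replicate 3 (0.0316), and the second without Stat5b-/- replicate 3 (0.43, adjusted p = 0.0407). With the GC offset the first was 0.20 (adjusted p = 0.109). Both genes lie on chromosome 19, where the median log2 fold change of 471 tested genes was 0.41 in Stat5a-/- against wt and -0.43 in Stat5b-/- against Stat5a-/-. The part of the chromosome in the Rela difference was not tested.

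Nfkb1, the precursor of p50, and Relb, the partner of p52, passed no test. Nfkb1 was among the most counted members, with 151.0 to 165.6 normalized CPM in wt, 152.1 to 186.3 in Stat5a-/- and 148.8 to 175.7 in Stat5b-/-, and its log2 fold changes of 0.08 and 0.07 against wt had standard errors of 0.11. Relb had 5.26 to 8.06 normalized CPM in wt, 4.27 to 7.57 in Stat5a-/- and 5.26 to 7.89 in Stat5b-/-, from 61 to 127 reads per library. Its standard error of 0.24 on the log2 scale in Stat5a-/- against wt makes it the least precise subunit.

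**Figure D3:**
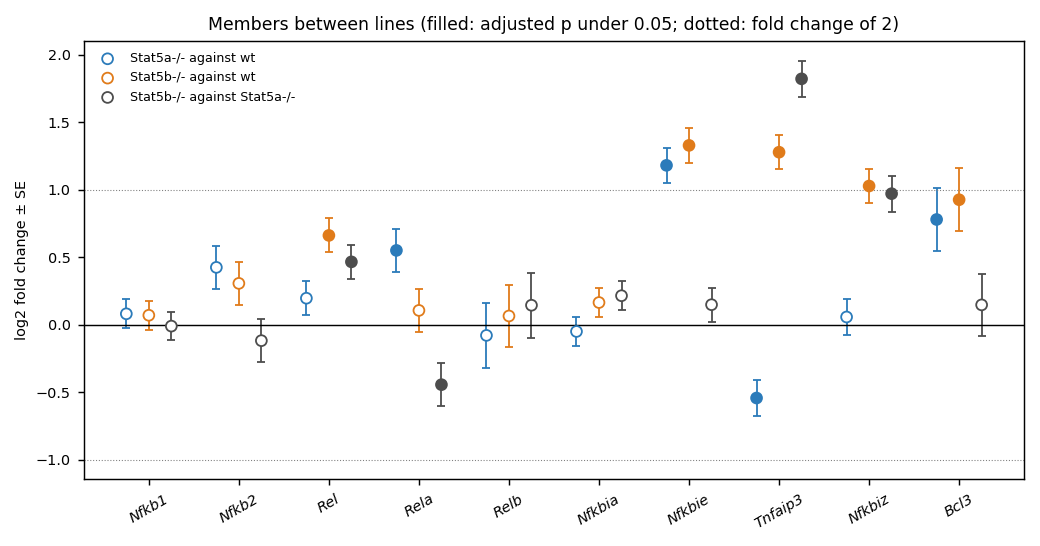
Log2 fold change with standard error (y axis) of the 10 genes in the 3 comparisons, filled where the adjusted p is under 0.05, with dotted lines at a fold change of 2. Nfkbie is near 1.2 to 1.3 in both comparisons with wt, and Tnfaip3 is -0.54 in Stat5a-/- and 1.28 in Stat5b-/-.

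Levels of different subunits were compared per kilobase of exon. Rela led with 50.5 ± 5.07 (SD, n = 3) normalized CPM per kilobase in wt, 74.0 ± 13.1 in Stat5a-/- and 54.3 ± 11.4 in Stat5b-/-. Nfkb1 followed in wt with 12.998 ± 0.645, then Rel with 8.83 ± 1.45, Nfkb2 with 6.00 ± 0.618 and Relb with 1.67 ± 0.368. In Stat5b-/- the level of Rel per kilobase, 14.0 ± 0.743, and that of Nfkb1, 13.6 ± 1.16, did not differ beyond their spread by this length. As a share of the summed level of the 5 subunits, Rela was 63.0% ± 2.35 in wt, 68.6% ± 2.55 in Stat5a-/- and 59.3% ± 3.00 in Stat5b-/-. Rel had a share of 11.1% ± 2.51, 9.60% ± 2.09 and 15.6% ± 2.08 in that order, and its Stat5b-/- libraries (13.9% to 17.9%) all lay above those of wt (8.60% to 13.6%). These shares depend on the length used. The union exon length of Nfkb1 is 12061 bases against 4117 for its longest coding transcript, and by the latter Nfkb1 took 36.1% in wt and Rela 47.8%. By that length the share of Rel was 8.44% in wt, and in Stat5b-/- it was 12% against 34.2% for Nfkb1, so that those levels were close by union exon length only.

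**Figure D4:**
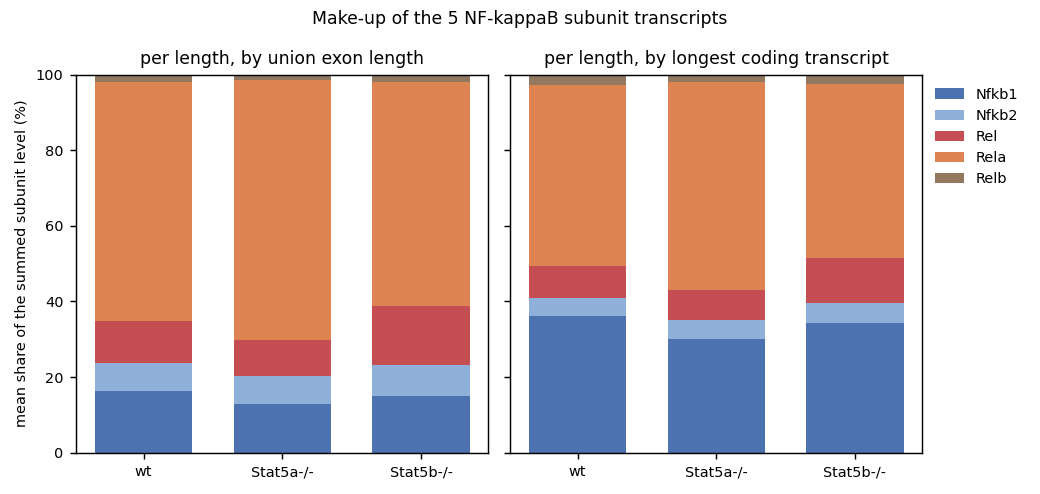
Mean share (%, y axis) of each of the 5 subunits in their summed level per length in wt, Stat5a-/- and Stat5b-/- (3 libraries each), by union exon length (left) and by the longest coding transcript (right). Rela holds the largest share by both lengths, 63.0% and 47.8% in wt, and the share of Nfkb1 in wt goes from 16.3% to 36.1%.

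Among the inhibitors, Nfkbie was higher in both knockout lines. It encodes IkappaB-epsilon, a cytoplasmic inhibitor known for restraining dimers of c-Rel and p65, and lies on chromosome 17 from 45555716 to 45563169 (GRCm38, + strand). It had 18.4, 15.6 and 17.4 normalized CPM in wt, 36.4, 35.0 and 45.2 in Stat5a-/- and 47.1, 43.1 and 38.8 in Stat5b-/-. Every knockout library was at least as high as 35.0, and no wt library was above 18.4. The gene was 2.27-fold higher in Stat5a-/- (log2 fold change 1.18, standard error 0.13, adjusted p = 1.01e-05) and 2.51-fold higher in Stat5b-/- (1.33, standard error 0.13, adjusted p = 2.88e-06), and the knockout lines overlapped (0.15, standard error 0.13, adjusted p = 0.394). Both calls held in every alternative run, the T-cell covariate included (1.35 in Stat5a-/-, and 1.63 in Stat5b-/- with an adjusted p of 0.007). Across the 677 tested genes of chromosome 17 the median log2 fold change was 0.53 in Stat5a-/- and 0.14 in Stat5b-/-. The part of the chromosome in the Nfkbie difference was not tested.

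Tnfaip3 moved in opposite directions. It encodes A20, the ubiquitin-editing enzyme that shuts down signaling from TNF and Toll-like receptors, and lies on chromosome 10 from 19000910 to 19015657 (- strand). It had 13.3, 11.97 and 15.9 normalized CPM in wt, 10.1, 9.52 and 8.48 in Stat5a-/- and 33.7, 33.2 and 32.9 in Stat5b-/-. No library of any line overlapped with another line. Tnfaip3 was lower in Stat5a-/- (log2 fold change -0.54, standard error 0.14, adjusted p = 0.00694) and 2.43-fold higher in Stat5b-/- (1.28, standard error 0.13, adjusted p = 3.40e-06). Between the knockout lines it was 3.54-fold higher in Stat5b-/- (1.82, standard error 0.13, adjusted p = 3.67e-07). With the T-cell marker sum as a covariate the values were -0.57 (adjusted p = 0.0776), 1.24 (adjusted p = 0.0287) and 1.80 (adjusted p = 4.39e-05). Of the 3 members called in both comparisons with wt, 1 had opposite signs, and of 3394 such genes over all tested, 305 did.

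Nfkbia encodes IkappaB-alpha, the inhibitor that is resynthesized early after NF-kappaB enters the nucleus, and no comparison of it passed the test. It had 70.6, 58.9 and 68.5 normalized CPM in wt, 58.2, 64.0 and 69.0 in Stat5a-/- and 76.2, 77.0 and 68.5 in Stat5b-/-. Its lines overlapped in all 3 comparisons. The log2 fold change was -0.05 in Stat5a-/- (standard error 0.11, adjusted p = 0.756) and 0.16 in Stat5b-/- (standard error 0.11, adjusted p = 0.235). Between the knockout lines it was 0.21 (adjusted p = 0.147), where the GC offset gave 0.27 (adjusted p = 0.012).

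The nuclear IkappaB proteins bind dimers on DNA and modify which targets are transcribed. Nfkbiz, which encodes IkappaB-zeta, had 8.19, 9.19 and 8.95 normalized CPM in wt, 9.86, 9.11 and 8.39 in Stat5a-/- and 18.7, 16.2 and 18.9 in Stat5b-/-. All Stat5b-/- libraries stood above the other 6, which overlapped. It was 2.04-fold higher in Stat5b-/- than in wt (log2 fold change 1.03, standard error 0.13, adjusted p = 2.80e-05) and 1.96-fold higher than in Stat5a-/- (0.97, standard error 0.13, adjusted p = 1.01e-04), with 0.06 (adjusted p = 0.781) for Stat5a-/- against wt. The fold change over 2 was just reached, and without wt replicate 1 (0.98) or Stat5b-/- replicate 1 (0.97) or 3 (0.99) the log2 fold change was under 1. The T-cell covariate left a log2 fold change of 0.55 in Stat5b-/- against wt (adjusted p = 0.229).

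Bcl3, whose product joins homodimers of p50 or p52 and was first found at a leukemia breakpoint, was the rarest member in wt by normalized CPM. It had 4.12, 4.29 and 2.95 normalized CPM in wt, 6.78, 7.65 and 5.05 in Stat5a-/- and 7.75, 5.19 and 8.76 in Stat5b-/-, from 51 to 115 reads per library. Both knockout lines lay above wt and overlapped with each other. Its log2 fold change was 0.78 in Stat5a-/- (standard error 0.24, adjusted p = 0.0204) and 0.93 in Stat5b-/- (standard error 0.23, adjusted p = 0.00553). The first call was lost without wt replicate 3 (adjusted p = 0.0936), Stat5a-/- replicate 1 (0.0661) or Stat5a-/- replicate 2 (0.0922) and with the GC offset (0.52, adjusted p = 0.178). The T-cell covariate ended both calls (0.23, adjusted p = 0.675, and -0.07, adjusted p = 0.952). The counting did not use strand, and 161 exonic bases of Bcl3 (6.50%) overlap with the antisense gene Gm16175, whose reads cannot be told apart from those of Bcl3 there. Bcl3 has the highest exonic GC content of the 10 genes, 62.6%.

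For the 3 members past both limits, the genes with the most similar pattern were looked up over the 9 libraries, as the root mean square distance of centred log2 CPM. Nearest were Zxdc (0.064) and Sept1 (0.074) for Nfkbie, Sh3bgrl2 (0.10) and Gapt (0.17) for Tnfaip3, and Skil (0.051) and Utrn (0.073) for Nfkbiz. No gene of the pathway lists was among these 6. Of the 13852 genes tested 83 were on those lists, so 0 of 6 is near that share.

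Around the 10 genes, 109 other genes of the pathway were listed in 7 groups, and 83 of them passed the filter. Of these 83, the Stat5a-/- line had 22 higher and 9 lower than wt, the Stat5b-/- line had 35 higher and 15 lower than wt, and Stat5b-/- against Stat5a-/- gave 22 higher and 16 lower. Over all tested genes the shares were 19.8% and 16.3%, 24.2% and 22.0%, and 16.4% and 17.5%. Past both limits the numbers were 10 and 3, 15 and 7, and 5 and 7, where all genes gave 7.75% and 6.49%, 10.6% and 8.44%, and 4.81% and 6.60%. The 15 became 8 without Stat5b-/- replicate 1 and 6 with the T-cell covariate, and the share of all genes past both limits was not computed there. With the T-cell marker sum as a covariate, the Stat5b-/- line had 7 higher and 5 lower than wt, where 948 and 890 of all 13852 genes were called. The median log2 fold change of the 83 genes was 0.16 in Stat5a-/- and 0.20 in Stat5b-/-.

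Upstream of the subunits are the ligands. Of 10 listed ligands 5 were tested, and 4 were higher in Stat5a-/- while 3 were lower and 2 higher in Stat5b-/-. The lists that follow are small, and their counts stand beside 19.8% of all genes higher and 16.3% lower in Stat5a-/- and 24.2% higher and 22.0% lower in Stat5b-/-. Lta, encoding lymphotoxin alpha, was at 200.6 ± 9.34 (SD, n = 3) normalized CPM in wt, 519.8 ± 28.9 in Stat5a-/- and 49.7 ± 10.3 in Stat5b-/-. Tnf, the ligand after which the receptor family is named, had 41.1 ± 2.12, 75.6 ± 3.61 and 16.6 ± 1.80. Tnfsf11, encoding RANKL, had 2.75 ± 0.245, 22.0 ± 0.886 and 1.15 ± 0.275. Each was higher in Stat5a-/- and lower in Stat5b-/-, opposite to Tnfaip3 in both lines. Their log2 fold changes against wt were 1.37 and -2.01 for Lta, 0.88 and -1.31 for Tnf, and 2.99 and -1.25 for Tnfsf11, with adjusted p-values of at most 3.65e-04. Il33, an alarmin of the interleukin-1 family, was 9.04-fold higher in Stat5b-/- from 17 to 29 reads in the wt libraries. Ltb, which pairs with lymphotoxin alpha, was higher in both lines (1.13 and 0.86), with a log2 difference between them of -0.27 (adjusted p = 0.150). Tnf, Lta and Ltb lie on chromosome 17, whose tested genes were higher in Stat5a-/- in 56.1% and had a median log2 difference of -0.42 in Stat5b-/- against Stat5a-/-. Of the genes named in the other lists, Ier3 also lies on chromosome 17, Map3k8 on chromosome 18 (median log2 fold change 0.43 in Stat5a-/- against wt), and Fth1 and Fas on chromosome 19, as does Il33. The part of the chromosome in these differences was not tested.

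Of 14 tested receptors 3 were higher and 5 lower in Stat5a-/- and 7 higher and 3 lower in Stat5b-/-, and the share higher in Stat5a-/- was near that of all genes. Tnfrsf13c, the BAFF receptor of B cells and an activator of the Nfkb2 branch, rose from 20.7 ± 2.09 normalized CPM in wt to 92.8 ± 11.4 in Stat5a-/- and 40.7 ± 8.20 in Stat5b-/-. The Toll-like receptor Tlr2 was lower in both lines (log2 fold change -0.90 and -1.50), as was Tlr6 (-1.32 and -0.63). Il1rap, the shared chain of interleukin-1 family receptors, was lower in Stat5a-/- (-1.45, adjusted p = 9.83e-05), and Tnfrsf11a, the receptor for RANKL, was lower in Stat5b-/- (-1.51, adjusted p = 5.33e-04). Tnfrsf11a was also lower in Stat5a-/- (-0.70, adjusted p = 0.0474), where its libraries overlapped with wt. Tlr3 was higher in Stat5b-/- (1.42, adjusted p = 0.00434) with only 10 to 20 reads in the wt libraries.

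Of 17 adaptors and ubiquitin ligases 5 were higher in Stat5a-/- and 6 in Stat5b-/- (19.8% and 24.2% of all genes), with 1 lower in each. Traf5, a TNF receptor adaptor, had 3.57 ± 0.370 normalized CPM in wt, 7.74 ± 0.866 in Stat5a-/- and 14.2 ± 2.16 in Stat5b-/-. Of 12 kinases 4 were higher in Stat5a-/- and 5 in Stat5b-/-, and the rest did not pass the test. Map3k8, a kinase held by the p105 product of Nfkb1, rose 5.18-fold in Stat5a-/- and 2.01-fold in Stat5b-/-. Prkcb, the protein kinase C of B-cell receptor signaling, rose 2.11-fold and 1.43-fold. Of 14 other inhibitors tested, 2 were higher and 2 lower in Stat5a-/- and 4 higher and 3 lower in Stat5b-/-.

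Downstream, 2 of 10 survival and stress targets were higher in Stat5a-/-, which is the share of all genes (19.8%), and the other 8 did not pass the test. In this list 5 were higher and 3 lower in Stat5b-/-. Fth1, the ferritin heavy chain, had 1901 ± 113 normalized CPM in wt, 5242 ± 434 in Stat5a-/- and 1346 ± 146 in Stat5b-/-, and Gadd45b rose in both lines (1.40 and 0.79). Traf1 and Cflar, which restrain death receptor signaling, rose in Stat5b-/- (1.18 and 1.05), while Ier3 fell there (-1.26). Of 11 tested surface and secreted targets 6 were higher and 2 lower in Stat5b-/-, against 2 and 1 in Stat5a-/-. Fas, the death receptor, had a log2 fold change of 1.95 in Stat5b-/- and Cd83 one of 1.18, the latter from 13 to 21 reads in wt. Il2ra, the interleukin-2 receptor alpha chain, rose 3.50-fold in Stat5a-/- (1.81, adjusted p = 1.04e-07). Plau, the urokinase gene, fell in both lines (-1.68 and -2.34), down to 6 to 14 reads per library in Stat5b-/-. Across the 83 genes 25 were called in both comparisons with wt and 4 of these had opposite signs, namely Tnf, Lta, Tnfsf11 and Fth1. Over all 13852 tested genes 3394 were called in both and 305 of these had opposite signs. Tnf and Lta both lie on chromosome 17 and Fth1 on chromosome 19.

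**Figure D5:**
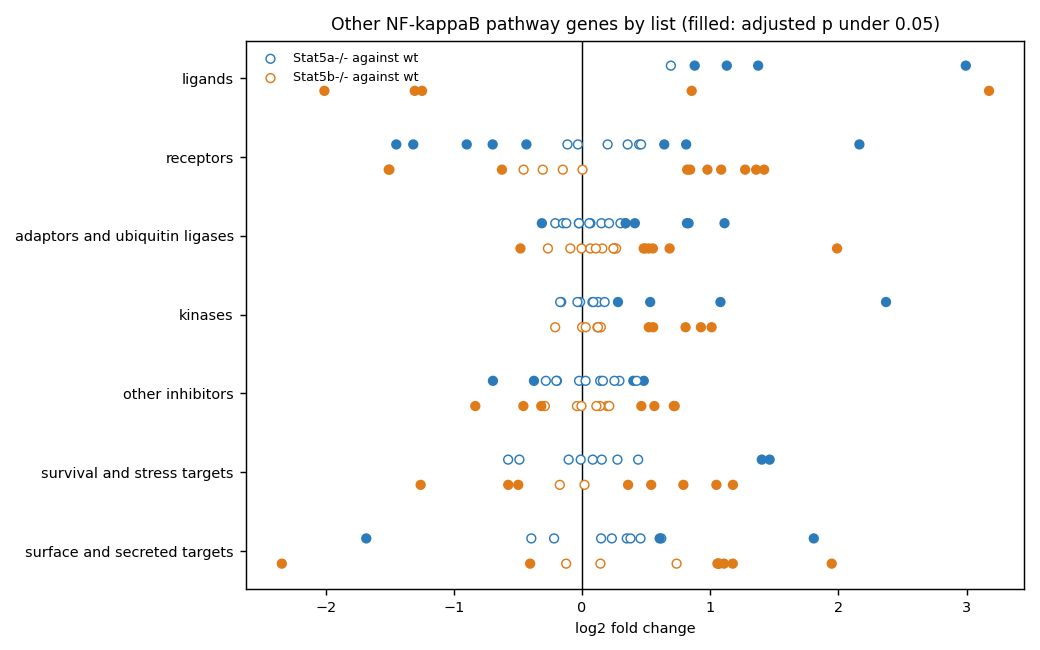
Log2 fold change (x axis) of the 83 tested pathway genes in 7 lists, for Stat5a-/- (blue) and Stat5b-/- (orange) against wt, filled where the adjusted p is under 0.05. The ligands lie on the positive side in Stat5a-/- (4 of 5 filled), and 3 of the 5 lie between -2.01 and -1.25 in Stat5b-/-.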

How the data were processed

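Per the labels and file headers, the authors made libraries from poly(A) RNA with the SENSE kit, sequenced 50 bp single-end reads, trimmed them with Trimmomatic, mapped them with STAR to GRCm38 (GENCODE M13), counted reads per gene with featureCounts 1.5.1 and deposited the raw counts. The 0 of 9 headers with a strand or multi-mapping option mean that strand was not used and multi-mapped reads were dropped. Libraries were grouped by genotype labels and titles, and the deposited description of the knockout samples calls them wt. Symbols came from GENCODE M21 (50376 of 50686 genes).

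The test was the quasi-likelihood method of edgeR 4.0.16 (glmQLFit, glmQLFTest, R 4.3.3) with TMM scaling and filterByExpr over all 9 libraries, and p was adjusted by Benjamini-Hochberg over 13852 genes. Standard errors are the size of the log2 fold change divided by the square root of F. The study's own tool, DESeq2 (1.42.0 here), was an alternative, as were RLE scaling, other filters, fits of 2 lines, leaving out each library, a GC offset (loess span 0.5) and a replicate block. The main edgeR and DESeq2 fits were tested on simulated data for Stat5b-/- against wt, and the other steps were not. The reads carry no molecular identifiers, so they do not count molecules one by one. Between replicates of a line the counts varied beyond sampling noise (chi-square per degree of freedom 5.05 to 31.4).

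The members and lists were chosen with earlier results of these data known, and 1 listed pathway gene is not reported here. Genes named are the members, Stat5a and Stat5b, up to 3 genes per pathway list and comparison with the largest change past an adjusted p of 0.05 and a fold change of 2 at a mean of at least 1 normalized CPM, and the 2 nearest patterns of each member past both limits.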

Additional observations from a re-analysis of the deposited data

Results flagged for a closer look

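The difference from wt was not the same in both knockout lines for 4 of the 10 genes, by the direct test of Stat5b-/- against Stat5a-/- (edgeR, adjusted over all genes), in which 16.4% of all genes were higher and 17.5% lower, so that 4 of 10 is near the share of all genes. The log2 difference, Stat5b-/- minus Stat5a-/-, was 1.82 for Tnfaip3 (adjusted p = 3.67e-07), 0.97 for Nfkbiz (1.01e-04), 0.47 for Rel (0.0125) and -0.44 for Rela (0.0454). The values for Tnfaip3, Nfkbiz and Rel stayed past the threshold without any 1 library, and the one for Rela did not. With the T-cell marker covariate those for Rel (0.18) and Rela (-0.30) were no longer past it. With 1 line of each genotype, genotype and line cannot be told apart.

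Of the 83 other pathway genes tested, 22 were higher and 16 lower in that test. Of those named, 19 were past the threshold, and since some were named for the size of this difference the number is a description. For the ligands the log2 difference was -4.24 in Tnfsf11, -3.38 in Lta, -2.18 in Tnf and 2.48 in Il33. For the receptors it was -1.19 in Tnfrsf13c, 1.14 in Il1rap, -0.60 in Tlr2, 1.53 in Tlr3 and 0.69 in Tlr6. For the adaptor Traf5 it was 0.88, and for the kinases -1.36 in Map3k8 and -0.56 in Prkcb. For the survival and stress targets it was 0.74 in Traf1, 0.77 in Cflar, -0.61 in Gadd45b and -1.96 in Fth1. For the surface and secreted targets it was 1.13 in Cd86, 1.33 in Fas and -1.93 in Il2ra. Cd86 passed in neither comparison with wt (adjusted p = 0.380 and 0.0581). Their adjusted p-values were at most 0.0365.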

How the results depend on the processing

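DESeq2, RLE scaling and a minimum mean of 10 counts changed no call of a member. Without the filter on low counts Nfkb2 in Stat5a-/- against wt passed (0.40, adjusted p = 0.0352), as it did in the fit of 2 lines (0.41, adjusted p = 0.0345), where Rela between the knockout lines did not (-0.44, adjusted p = 0.0671) and 0 were lower. Same-numbered libraries did not deviate together (r of -0.445 to 0.216 over 9 pairs). The replicate block lost Rela between the knockout lines (-0.45, adjusted p = 0.0623, leaving 0 lower) and changed no other member's call. The cause was not tested for any of these.

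The GC offset lost Bcl3 in Stat5a-/- against wt (0.52) and brought past the threshold Rel in Stat5a-/- against wt (0.28, adjusted p = 0.0273) and, in Stat5b-/- against Stat5a-/-, Nfkbia (0.27) and Nfkbie (0.23), so that 5 members were higher there, while the number over all genes went from 2269 to 2903. The sign changed for 2 uncalled values, Nfkb2 between the knockout lines (0.00089) and Relb in Stat5b-/- against wt (-0.015). With the replicate block added, Rel (0.28, adjusted p = 0.0523) and Nfkbie (0.23, adjusted p = 0.0576) were no longer past it, and Bcl3 was 0.52, Nfkbia 0.27, Nfkb2 0.00091 and Relb -0.017.

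Leaving out each library in turn, Stat5a-/- against wt gave 1 to 4 members higher and log2 fold changes of -0.04 to 0.13 for Nfkb1, 0.28 to 0.51 for Nfkb2, 0.37 to 0.62 for Rela, -0.27 to 0.12 for Relb, -0.026 to 0.090 for Nfkbiz and 0.63 to 0.90 for Bcl3. The number of all genes higher there also moved, from 2205 of 14102 (without wt replicate 3, which gave the 1 member) to 2932 of 14143 (without Stat5b-/- replicate 3). In Stat5b-/- against wt the log2 fold changes were 0.11 to 0.43 for Nfkb2, -0.088 to 0.25 for Rela and -0.088 to 0.24 for Relb, and 8 to 15 other pathway genes were higher past both limits (8 without Stat5b-/- replicate 1). In that last run 2836 of 14139 genes were higher at the adjusted p alone, against 3348 of 13852 with all libraries. Between the knockout lines 0 to 1 members were lower, 1 to 2 higher past both limits and 14 to 25 other pathway genes higher (14 without Stat5a-/- replicate 2). Over all genes 1647 of 14179 were higher and 2059 lower in that last run, against 2269 and 2429 of 13852 with all libraries. The share of all genes past both limits was not computed with a library left out. The log2 differences between the knockout lines were -0.078 to 0.090 for Nfkb1, -0.29 to 0.0059 for Nfkb2, -0.62 to -0.28 for Rela, -0.073 to 0.32 for Relb and -0.0090 to 0.34 for Bcl3.

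The T-cell marker covariate, chosen after seeing the data, left 1 member higher and 0 lower in Stat5a-/- and 2 higher in Stat5b-/- against wt, and 0 lower between the knockout lines. Over all 13852 genes that fit called 1899 higher and 1650 lower, 948 and 890, and 1047 and 1368 in these comparisons, against 2739 and 2254, 3348 and 3049, and 2269 and 2429 without it, so calls were lost over all genes. It lost Bcl3 (0.23), Rela (0.72) and Tnfaip3 (-0.57) in Stat5a-/-, Nfkbiz (0.55) and Rel (0.027) in Stat5b-/-, and Rel (0.18) and Rela (-0.30) between the knockout lines. Signs changed for Nfkbia (0.14), Nfkbiz (-0.21), Rel (-0.16) and Relb (0.21) in Stat5a-/-, for Bcl3 in Stat5b-/- (-0.072) and, between the knockout lines, for Bcl3 (-0.30) and Nfkb1 (0.16). Other pathway genes past both limits were then 5 lower in Stat5a-/-, 6 higher and 4 lower in Stat5b-/- and 2 higher between the knockout lines, and at the adjusted p alone 7 higher and 5 lower in Stat5b-/- and 6 higher between the knockout lines. The share of all genes past both limits was not computed in that fit, so the counts past both limits have no background beside them. Without division by length, Nfkb1 led in wt with 40.6% of the subunits and Rela had 35.5%.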
